A study of Mus musculus with 16 samples.

Results

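The AMPA receptor genes and the genes of their transmembrane auxiliary subunits, the TARPs, were followed in 16 RNA sequencing libraries from primary mouse hippocampal cultures. The 10 genes were taken as a fixed list of 4 pore-forming subunits (Gria1, Gria2, Gria3 and Gria4) and 6 TARPs (Cacng2, Cacng3, Cacng4, Cacng5, Cacng7 and Cacng8), among 55385 identifiers in the deposited tables. All 10 were among the 17222 genes with enough counts to be tested. Recombinant adeno-associated viruses carried an shRNA under the U6 promoter and GFP under the chicken β-actin promoter, both promoters being active in many cell types. The authors state that they chose the serotype of their viruses for its neuronal tropism. The cultures came from newborn C57Bl/6N mice and were infected with these viruses. They received Control-shRNA or an shRNA against Dnmt3a1, the long isoform of the DNA methyltransferase Dnmt3a, and were left at baseline (0 h) or treated for 4 h with 50 µM bicuculline, a GABA-A receptor blocker that induces bursts of action potentials. Each of the 4 groups, Control-shRNA baseline, Control-shRNA bicuculline, Dnmt3a1-shRNA baseline and Dnmt3a1-shRNA bicuculline, had 4 libraries described as independent neuronal preparations. A single knockdown construct was used for these sequenced libraries, and untreated cultures without virus were not analysed here. The qRT-PCR of the authors, with a further construct and uninfected controls, was not part of these data.

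AMPA receptors are tetramers of the Gria-encoded subunits GluA1 to GluA4 and carry most of the fast excitatory current at hippocampal synapses. GluA2 is special among them because RNA editing of its transcript by the adenosine deaminase Adarb1 places an arginine in the pore, and receptors that contain it pass little calcium. The TARPs bind the assembled receptor, bring it to the surface, anchor it to the scaffold PSD-95 and slow its gating. Type I TARPs (Cacng2, also called stargazin, and Cacng3, Cacng4 and Cacng8) do all of this, whereas type II TARPs (Cacng5 and Cacng7) act more on gating than on surface delivery. In hippocampal pyramidal cells GluA1 with GluA2 and the TARP Cacng8 are known as the prevailing combination, while Gria4 and Cacng2 are prominent in interneurons.

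The Gria genes lie on 4 different chromosomes and the TARP genes in part in clusters. In the GRCm38 build, Gria1 spans chr11:57011387-57330244, Gria2 chr3:80681450-80802835, Gria3 chrX:41400854-41678601 and Gria4 chr9:4417896-4796234. Among the TARP genes, Cacng4 (chr11:107732357-107794557) and Cacng5 (chr11:107874605-107915055) are neighbours on the minus strand, and Cacng7 (chr7:3332955-3368221) and Cacng8 (chr7:3390683-3415648) are neighbours on the plus strand. Cacng3 lies at chr7:122670492-122769393 and Cacng2 at chr15:77991748-78120028. RefSeq promoter windows, which hold 250 bases before and 50 bases after an annotated start, were found for 7 of the 10 genes. Of these, 3 are shown, each as the 250 bases before the start on the strand of the gene with CG dinucleotides, the sites of DNA methylation, in capitals. Gria2 and Cacng5 are shown because they changed with bicuculline, in opposite directions, and Gria4 because it varied together with Gria2 between libraries.
Gria2: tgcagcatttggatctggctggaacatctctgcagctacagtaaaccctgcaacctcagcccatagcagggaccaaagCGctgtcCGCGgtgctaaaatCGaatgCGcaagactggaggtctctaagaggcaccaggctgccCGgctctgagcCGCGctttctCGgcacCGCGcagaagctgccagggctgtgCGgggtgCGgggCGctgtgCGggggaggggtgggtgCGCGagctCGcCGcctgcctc
Gria4: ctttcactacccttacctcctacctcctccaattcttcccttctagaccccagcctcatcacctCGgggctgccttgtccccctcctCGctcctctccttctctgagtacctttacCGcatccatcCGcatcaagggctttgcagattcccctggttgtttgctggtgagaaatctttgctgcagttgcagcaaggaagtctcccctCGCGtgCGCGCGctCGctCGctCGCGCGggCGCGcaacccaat
Cacng5: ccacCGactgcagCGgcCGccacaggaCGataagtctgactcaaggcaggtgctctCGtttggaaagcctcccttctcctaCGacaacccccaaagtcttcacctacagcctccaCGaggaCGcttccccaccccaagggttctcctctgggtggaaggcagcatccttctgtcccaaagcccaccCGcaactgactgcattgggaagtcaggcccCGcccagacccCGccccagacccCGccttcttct
The stretches lie on the minus strand of GRCm38 at chr3:80802836-80803085 for Gria2, at chr9:4796235-4796484 for Gria4 and at chr11:107915056-107915305 for Cacng5. The full window of Gria2 held 26 CG dinucleotides, more than 83.1% of the 32851 windows of the table, against a median of 7 over all windows. The windows of Gria4 and of Cacng5 each held 17, and that of Cacng2 held 20. The windows of Cacng2, Cacng3 and Cacng8 lie inside the annotated genes, and those of Cacng8 and Cacng3 held 2 and 9. That of Cacng7, which lies before the annotated gene, held 15. A second window of Cacng5, at a start inside the gene, held 5. The windows were searched on both strands for TGACGTCA, the cAMP response element, which 1.79% of all windows hold and no window of these genes held. TGANTCA, the AP-1 site, is found in 7.81% of all windows and occurred once among the members, in the Cacng5 stretch printed above. CANNTG, the E-box, is found in 72.3% of all windows and occurred in every member window except that of Cacng7. These matches describe letters in the windows and show no binding.

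The libraries were of even depth, from 28912697 to 29586355 estimated counts. Dnmt3a itself, the knocked-down gene, stood at 312 ± 13.8 CPM (SD, n = 4) in Control-shRNA baseline and at 44.5 ± 3.66 CPM in Dnmt3a1-shRNA baseline, which left 14.2%, and 13.9% was left with bicuculline (p = 0.0286 in each case by a two-sided exact permutation test, the smallest value that 4 against 4 libraries allow). Counts per gene take the isoforms Dnmt3a1 and Dnmt3a2 together, so these values do not give the level of Dnmt3a1 alone. CPM are estimated counts brought to a common library size with TMM, a scaling that assumes that most genes do not change. Neuronal marker genes were high in every library and no listed marker of any cell type was at 0 throughout a group. The summed level of 7 microglial markers was 2.26 to 5.51 CPM, that of 9 astrocyte markers 714 to 1138 CPM and that of 7 excitatory neuron markers 2243 to 2783 CPM. These are mixed cultures, and a change in the number of cells of a type cannot be told apart from a change of RNA per cell. Fold changes, their standard errors (SE) and adjusted p-values come from the quasi-likelihood test of edgeR, with p-values adjusted by Benjamini-Hochberg over all 17222 genes. A gene passed at an adjusted p under 0.05, and was called where its log2 fold change also exceeded 0.5 in either direction. Without TMM, by library size alone, the median of all genes moved by -0.15 on the log2 scale with bicuculline in Control-shRNA and by -0.07 with knockdown at baseline, so directions below are relative to the bulk of the genes.

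Per transcript length, Gria1 had the highest mean and Cacng5 the lowest in all 4 groups, with Gria1 overlapping Gria2 in Dnmt3a1-shRNA baseline. In Control-shRNA baseline, Gria1 reached 291 ± 16.6 TPM (SD, n = 4), followed by Gria2 at 180 TPM and Cacng7 at 152 TPM, whose libraries overlapped. Cacng8 stood next at 118 TPM, apart from its neighbours in the order. Gria4 (61.4 TPM) overlapped with Cacng4 (59.8 TPM), and Gria3 (44.5 TPM), Cacng3 (39.3 TPM) and Cacng2 (38.6 TPM) overlapped in turn. Cacng5 came last at 24.0 TPM, below every library of Cacng2. Cacng1 and Cacng6 encode gamma subunits of calcium channels that are not TARPs. In the same libraries they averaged 0.0947 and 0.725 CPM, which is not corrected for length and so was not ranked with the TPM above. The summed TPM of the Gria genes was 577 ± 42.1 and that of the TARP genes 432 ± 48.5, so that 1.35 ± 0.145 Gria transcripts were present for each TARP transcript, with 1.22 to 1.28 in the other groups.

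**Figure D1:**
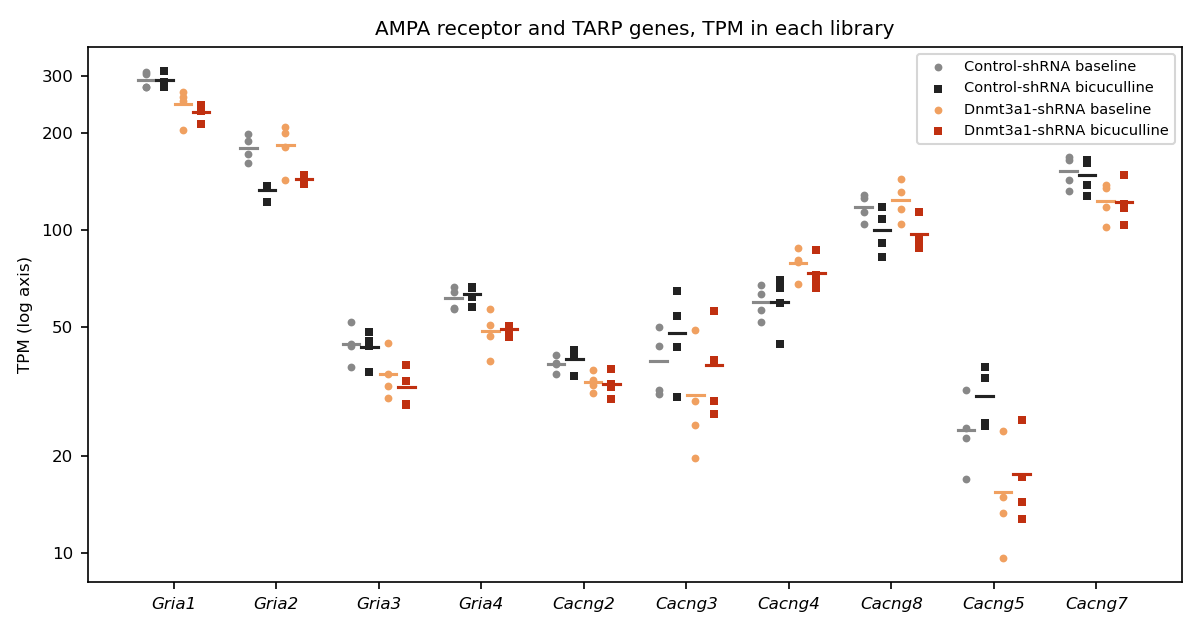
TPM of the 10 genes on a log axis, with 1 point for each of the 16 libraries, coloured by group, and a bar at the mean of 4. Gria1 lies highest in every group (means 231 to 291 TPM) and Cacng5 lowest (15.5 to 30.6 TPM). In both Dnmt3a1-shRNA groups the mean of Cacng4 is higher. That of Gria2 is 183 against 180 TPM at baseline, a difference smaller than the SD, and 144 against 133 TPM with bicuculline. The means of Gria1, Gria3, Gria4, Cacng2, Cacng3, Cacng5 and Cacng7 are lower on this scale.

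Bicuculline lowered Gria2 and raised Cacng2 in Control-shRNA cultures, and both changes were modest. Cacng5, a type II TARP of low level, was higher by 1.48-fold and was the only member called. In all, 3 of 10 members passed, 2 higher and 1 lower, where 19.5% of all tested genes passed higher and 21.9% lower. Called genes made up 10.8% of all genes in the upward and 11.1% in the downward direction, so 1 called member of 10 is close to the background. The median log2 fold change of the members was 0.18, against 0.01 for all genes, and the median of its absolute value was 0.19, against 0.27.

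Gria2, the subunit that limits calcium entry, had 463, 426, 470 and 476 CPM in the 4 Control-shRNA baseline libraries and 393, 342, 359 and 369 CPM with bicuculline. Every stimulated library lay below every baseline library. Its log2 fold change was -0.33 (SE 0.08, adjusted p = 0.00461), a fall of 20.2%, and it passed under every alternative tried. Gria1, the subunit that is inserted during synaptic potentiation, had 741, 682, 706 and 777 CPM at baseline and 883, 794, 789 and 869.9 CPM with bicuculline. Its groups did not overlap either, but at a log2 fold change of 0.20 (SE 0.08) the adjusted p was 0.0683. Its mean TPM was the same at 291 and 290, and on TPM its log2 fold change was -0.00 (adjusted p = 0.986), so its direction depends on the scaling. Gria3 and Gria4 were 0.15 and 0.17 higher on the log2 scale with overlapping groups (adjusted p = 0.138 and 0.0744), and Gria3 turned to -0.01 by library size alone and to -0.03 on TPM.

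Among the type I TARPs, Cacng2 had 97.6, 97.9, 98.8 and 99.8 CPM at baseline and 112, 121, 119 and 119 CPM when stimulated. The baseline libraries were close together and all stimulated libraries lay above them. This was a log2 fold change of 0.26 (SE 0.05, adjusted p = 9.51e-04). By library size alone it was 0.10 (adjusted p = 0.176) and on TPM 0.05 (adjusted p = 0.687), which lay 0.25 and 0.19 above the median of all genes on these scales. Across all genes, 39.7% had groups that did not overlap in this comparison, and among the members Gria1, Gria2 and Cacng2 were such genes. Cacng3 had the widest spread, with 41.0, 51.1, 56.4 and 39.2 CPM at baseline and 45.5, 75.5, 86.1 and 59.1 CPM with bicuculline. It was 0.50 higher on the log2 scale but did not pass (SE 0.23, adjusted p = 0.0857). Without the first Control-shRNA bicuculline library, which holds its lowest stimulated value, it was called at 0.64 (adjusted p = 0.0317). Cacng4 was 0.18 higher (adjusted p = 0.158) and Cacng8, the TARP most enriched in hippocampus, 0.04 lower (adjusted p = 0.786). Without the same library Cacng8 was 0.01 higher (adjusted p = 0.956) and Cacng4 passed (0.26, adjusted p = 0.0277).

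Of the type II TARPs, Cacng5 had 30.5, 38.0, 50.4 and 41.7 CPM at baseline and 51.9, 67.5, 69.6 and 48.8 CPM with bicuculline. The highest baseline library and the lowest stimulated library overlapped. The log2 fold change of 0.57 (SE 0.21, adjusted p = 0.0377) no longer passed when any of 6 libraries was left out. These were Control-shRNA baseline 1, 2 and 4, Control-shRNA bicuculline 2 and 3 and Dnmt3a1-shRNA bicuculline 4, without which it was 0.45 to 0.58 with adjusted p from 0.0505 to 0.120. It did not pass by library size alone either (0.40, adjusted p = 0.178) or on TPM (0.35, adjusted p = 0.294). Cacng7 was 0.18 higher (adjusted p = 0.102) and turned to -0.04 on TPM.

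Same-numbered libraries varied together in this comparison. The replicate number was fitted as a block over all 16 libraries, also for comparisons in which 1 number did not pair. This fit passed 9 of 10 members and 8756 of the 17222 genes. Only Cacng8 did not pass (adjusted p = 0.621), and the fold changes stayed close to those above. With the block, Cacng3 had an adjusted p of 5.52e-05 at a log2 fold change of 0.48, Cacng5 one of 4.11e-04 and Gria1 one of 0.00246. For Gria3, Gria4, Cacng4 and Cacng7 the adjusted p was 0.0322, 0.0161, 0.0351 and 0.0114. Bicuculline also moved cell type markers. Of 8 GABAergic neuron markers 6 passed, all higher, and their summed level was 1764 to 2095 CPM at baseline and 2594 to 2964 CPM with bicuculline. Of 8 markers of neurons in general 5 passed higher and 1 lower, and their sum went from 6481 to 7251 CPM at baseline to 8028 to 8654 CPM without overlap. Of 7 excitatory neuron markers 3 passed higher and 1 lower. The part of these markers in the changes of the members was not tested.

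**Figure D2:**
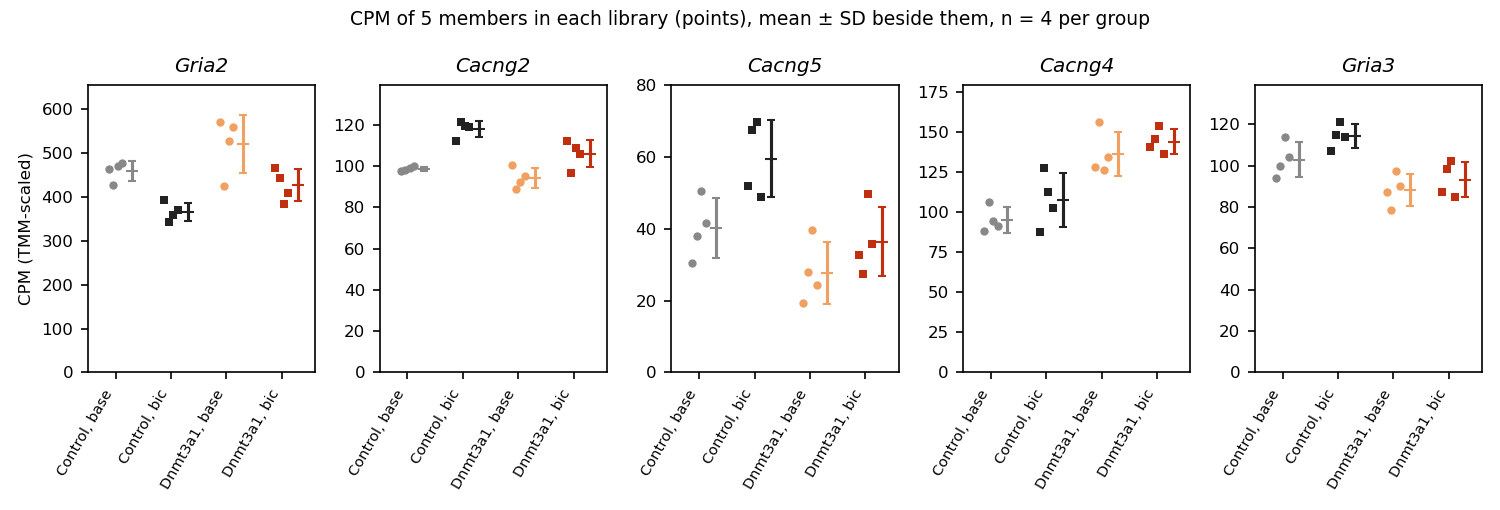
CPM of the 5 members that passed the test in any comparison, in each library (points) with the mean ± SD of 4 libraries beside them, on axes that start at 0. Gria2 is lower with bicuculline under both shRNAs. In the Dnmt3a1-shRNA libraries the means of Cacng4 and Gria2 are higher and those of Gria3, Cacng2 and Cacng5 lower. Of these knockdown differences, those of Gria2 and Cacng2 did not pass, and those of Gria3 and Cacng5 passed only in bicuculline-treated cultures.

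The response to bicuculline in Dnmt3a1-shRNA cultures had the same direction as in Control-shRNA for all 10 members under TMM, and 2 of them passed. These were again Gria2 and Cacng2, the first lower and the second higher, where 25.2% of all genes passed lower and 20.8% higher. Gria2 had 570.3, 426, 528 and 560.0 CPM at baseline and 467, 444, 385 and 409 CPM with bicuculline. The second baseline library, at 426 CPM, lay within the stimulated range, so the groups overlapped. It fell by 18.2% (log2 fold change -0.29, SE 0.08, adjusted p = 0.00883), and it passed under every alternative. Cacng2 had 100.3, 88.6, 92.3 and 95.1 CPM at baseline and 112, 96.6, 109 and 106 CPM with bicuculline, a log2 fold change of 0.17 (SE 0.05, adjusted p = 0.0166). It did not pass without Dnmt3a1-shRNA baseline 2 (0.14, adjusted p = 0.0511) or Dnmt3a1-shRNA bicuculline 1 (0.14, adjusted p = 0.0650), and by library size alone its log2 fold change was 0.02 (adjusted p = 0.795) and on TPM -0.03. Cacng8 was 0.14 lower (adjusted p = 0.242), and it passed by library size alone (-0.29, adjusted p = 0.0370) and on TPM (-0.34, adjusted p = 0.0297). No member was called by edgeR, 3 had an unadjusted p under 0.05, and voom with limma and DESeq2 called none as well. Called genes were 12.6% of all genes upward and 13.2% downward. Cacng3 was 0.47 higher (adjusted p = 0.104) and Cacng5 0.39 higher (adjusted p = 0.151), and both were called without Dnmt3a1-shRNA baseline 3, the library with their highest baseline values (0.70, adjusted p = 0.0182 and 0.61, adjusted p = 0.0228). The groups of all members overlapped, whereas 40.4% of all genes had groups apart. Of 8 GABAergic markers 6 again passed higher, and their sum went from 1395 to 1611 CPM at baseline to 2267 to 2661 CPM. Of the markers of neurons in general 5 of 8 passed higher and 1 lower, and of the excitatory markers 3 of 7 higher and 1 lower. The part of these markers was not tested.

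The interaction, which asks whether the bicuculline response differed between the shRNAs, passed for no member and for 0% of the 17222 genes in edgeR, with no member and 852 genes at an unadjusted p under 0.05. DESeq2 passed 17 genes and voom with limma none, and none of the 17 was a member. The differences in response were between -0.18 for Cacng5 and 0.04 for Gria2 on the log2 scale. The 95% interval was -0.22 to 0.29 for Gria2 and -0.25 to 0.07 for Cacng2, and neither interval reaches 0.5 in either direction. For Cacng3 it was wide, at -0.71 to 0.64.

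**Figure D3:**
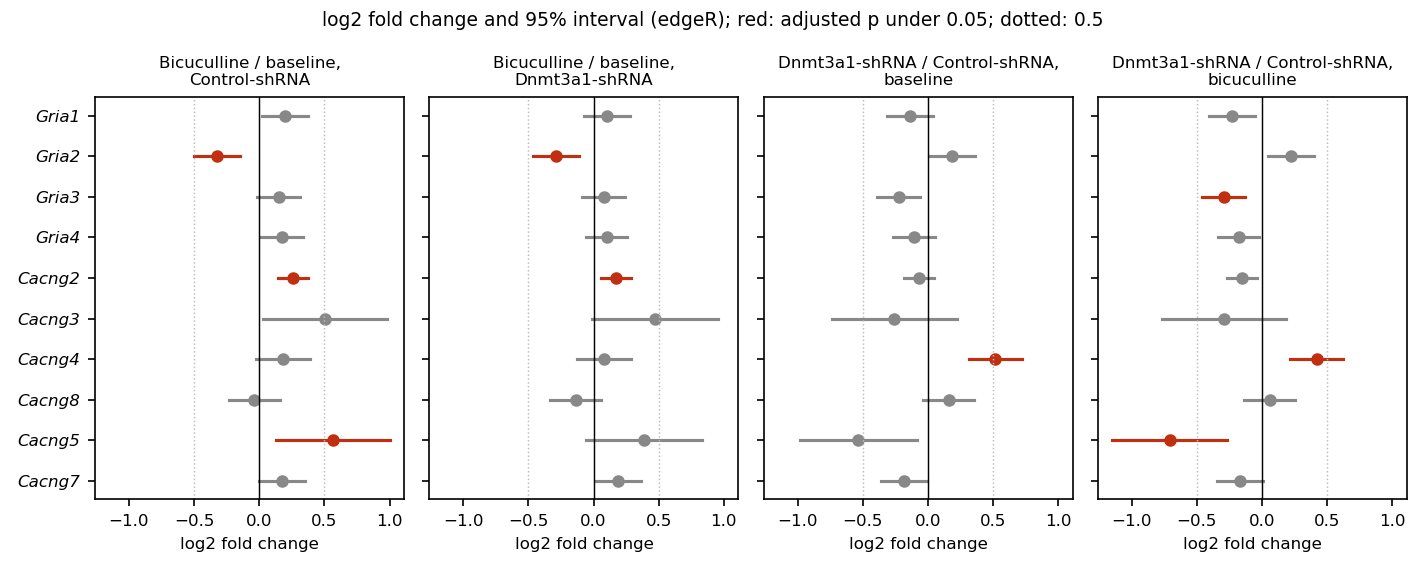
log2 fold change of each member with its 95% interval in 4 comparisons, with members that passed at an adjusted p under 0.05 in red and dotted lines at -0.5 and 0.5. Gria2 falls and Cacng2 rises with bicuculline under both shRNAs (the latter not on TPM), and with knockdown Cacng4 lies right of 0 and Gria3 and Cacng5 lie left of it in both conditions.

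Knockdown of Dnmt3a1 at baseline raised Cacng4, a type I TARP known for its expression in developing brain and in glia, by 1.43-fold. It was the only member that passed, in a comparison in which 8.12% of all genes passed higher and 8.19% lower. It was also the only member called, where 1.76% of genes were called higher and 4.07% lower. The median log2 fold change of the members was -0.12, against 0.01 for all genes. Cacng4 had 88.1, 106, 94.2 and 91.2 CPM in Control-shRNA baseline and 128, 156, 126 and 134 CPM in Dnmt3a1-shRNA baseline. All knockdown libraries lay above all control libraries, which held for groups of 19.9% of all genes in either direction. Its log2 fold change was 0.52 (SE 0.10, adjusted p = 0.00142). It fell below the fold threshold but kept passing without Control-shRNA baseline 1 (0.48), Control-shRNA baseline 4 (0.4996) or Dnmt3a1-shRNA baseline 2 (0.45). By library size alone it was 0.44 (adjusted p = 0.0159), and on TPM it was 0.40 and did not pass (adjusted p = 0.0559). The astrocyte markers had a median log2 fold change of 0.41 in this comparison with 1 of 9 passed, and their sum was 714 to 924 CPM in control and 730 to 1070 CPM in knockdown libraries. Across the 16 libraries, the deviations of Cacng4 from its group means had r = 0.44 with those of the astrocyte sum, 0.78 with the oligodendrocyte lineage sum, -0.64 with the sum of neurons in general and -0.68 with the GABAergic sum. Of 8 GABAergic markers 3 passed lower, with a sum of 1764 to 2095 CPM in control and 1395 to 1611 CPM in knockdown libraries. Of 7 excitatory markers 2 passed higher. The sum of all 7 went the other way with overlap, from 2546 to 2783 CPM in control to 2339 to 2568 CPM in knockdown libraries. Of 8 markers of neurons in general 1 passed higher. The part of these cell types in the difference was not tested.

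The other members did not pass at baseline. Cacng5 had 19.2, 28.0, 39.6 and 24.2 CPM with knockdown, against 30.5 to 50.4 CPM in control libraries, a log2 fold change of -0.53 (SE 0.21, adjusted p = 0.10). It was called without Dnmt3a1-shRNA baseline 3, the highest of these libraries (-0.75, adjusted p = 0.0187). Gria3, which lies on the X chromosome, was at -0.22 (SE 0.08, adjusted p = 0.0613). Cacng7 was at -0.18 (adjusted p = 0.151), Gria1 at -0.14 (adjusted p = 0.312), Gria4 at -0.11 (adjusted p = 0.382), Cacng2 at -0.07 (adjusted p = 0.467) and Cacng3 at -0.26 (adjusted p = 0.4995). Other scalings, which move the median of all genes down, passed more of them. By library size alone Gria1 (-0.22, adjusted p = 0.0214) and Gria3 (-0.30, adjusted p = 0.0452) passed, and on TPM Gria1 (-0.26, adjusted p = 0.0422) and Gria4 (-0.34, adjusted p = 0.0255). Gria2 was at 0.18 (adjusted p = 0.156), and without Dnmt3a1-shRNA baseline 2, its lowest knockdown library, it passed at 0.27 (adjusted p = 0.0150). Cacng8 was at 0.16 (adjusted p = 0.273). Same-numbered libraries varied together here too. With the replicate number as a block over all 16 libraries, 6 members and 4743 genes passed. Cacng4 was higher (0.52, adjusted p = 1.76e-05) and Cacng5 was called lower (-0.55, adjusted p = 0.00200). Gria1, Gria3, Cacng3 and Cacng7 passed lower without reaching the fold threshold, with adjusted p of 0.0388, 0.00726, 0.0112 and 0.0160.

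In bicuculline-treated cultures, knockdown left Cacng4 higher and Gria3 and Cacng5 lower. The 3 members passed where 7.69% of all genes passed higher and 9.99% lower. Cacng5 was the only one called, against 2% of genes called higher and 3.9% lower. Cacng4 had 87.5, 128, 113 and 103 CPM in the control libraries and 140.4, 145, 154 and 136 CPM in the knockdown libraries, without overlap. Its log2 fold change was 0.42 (SE 0.10, adjusted p = 0.00657), on TPM it was 0.30 (adjusted p = 0.138), and without Control-shRNA bicuculline 2 it was called at 0.51. Gria3 had 107, 115, 121 and 114 CPM with Control-shRNA and 87.3, 98.4, 102 and 85.0 CPM with knockdown. Each knockdown library lay below each control library. It fell by 18.4% (log2 fold change -0.29, SE 0.08, adjusted p = 0.0147), and it missed the threshold without Control-shRNA bicuculline 3 (adjusted p = 0.0510) or Dnmt3a1-shRNA bicuculline 4 (adjusted p = 0.0524).

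Cacng5 had 51.9, 67.5, 69.6 and 48.8 CPM with Control-shRNA and bicuculline and 32.6, 27.2, 49.7 and 35.8 CPM with knockdown and bicuculline. The third knockdown library lay just above the lowest control library. The log2 fold change was -0.71 (SE 0.21, adjusted p = 0.0262), a fall of 38.9%. It did not pass without Control-shRNA bicuculline 2 or 3 or without Dnmt3a1-shRNA bicuculline 1, 2 or 4, when it was -0.60 to -0.71 with adjusted p from 0.0597 to 0.0905. Cacng2 was at -0.15 (SE 0.05, adjusted p = 0.0603). Its groups met at 112 CPM, the highest knockdown and the lowest control library differing only in the third decimal (112.002 and 112.006 CPM), and they overlapped on TPM. Counting it with Cacng4 and Gria3, 3 members had groups that did not overlap in CPM, where 20.9% of all genes had such groups. The remaining members lay at -0.23 for Gria1 (adjusted p = 0.0666), 0.22 for Gria2 (adjusted p = 0.0817), -0.18 for Gria4 (adjusted p = 0.110), -0.29 for Cacng3 (adjusted p = 0.414), -0.17 for Cacng7 (adjusted p = 0.171) and 0.06 for Cacng8 (adjusted p = 0.716). Of these, Gria1 and Gria4 passed on TPM (-0.33, adjusted p = 0.0115 and -0.35, adjusted p = 0.0209). By library size alone 6 members passed, among them Gria1 (-0.31, adjusted p = 0.00217), Gria4 (-0.25, adjusted p = 0.0137) and Cacng2 (-0.23, adjusted p = 0.0109). The astrocyte markers had a median log2 fold change of 0.42, with 1 of 9 passed, and a sum of 733 to 996 CPM in control and 892 to 1138 CPM in knockdown libraries. The deviations of Cacng5 from its group means had r = 0.77 with those of the astrocyte sum over 16 libraries, although Cacng5 was lower and the astrocyte sum higher with knockdown. The GABAergic sum was 2594 to 2964 CPM in control and 2267 to 2661 CPM in knockdown libraries, with 0 of 8 markers passed. Of 7 excitatory neuron markers 3 passed higher, with a list median of 0.27. The sum of all 7 went the other way with overlap, from 2490 to 2741 CPM in control to 2243 to 2610 CPM in knockdown libraries. Of 8 markers of neurons in general none passed. The part of these cell types in the differences was not tested. Each knockdown comparison shares a group of libraries with each bicuculline comparison, so the values above are set side by side and not counted as separate evidence.

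The composition of the AMPA receptor transcript pool was described by the share of each gene in the summed TPM of the 4 Gria genes, which does not depend on how libraries are scaled to each other and was not tested. Gria2 made up 30.2, 31.2, 32.0 and 31.3% of the pool in Control-shRNA baseline and 26.0, 24.3, 25.2 and 24.5% with bicuculline. With Dnmt3a1-shRNA it made up 34.9, 34.4, 36.1 and 37.1% at baseline and 31.7, 33.0, 30.8 and 30.6% with bicuculline. The share was lower in every stimulated library than in every baseline library under the same shRNA. It was higher in every knockdown library than in every control library of the same condition. Gria2 itself passed in neither knockdown comparison, and its mean TPM at baseline was 180 in control and 183 in knockdown cultures. At baseline Gria1, Gria3 and Gria4 averaged 291, 44.5 and 61.4 TPM in control and 245, 35.9 and 48.6 TPM in knockdown cultures. With knockdown and bicuculline together the mean share of Gria2, at 31.5%, was close to the 31.2% of untreated control cultures. In control cultures the share of Gria1 went from 50.5 ± 1.29% (SD, n = 4) to 54.8 ± 0.935% with bicuculline. In knockdown cultures it went from 47.9 ± 1.65% to 50.6 ± 1.95%, with overlapping libraries (46.3 to 49.7% against 47.9 to 52.2%). Gria4 went from 10.6 ± 0.181% to 11.9 ± 0.338% in control and from 9.48 ± 0.34% to 10.8 ± 0.618% in knockdown cultures. Gria3 had means from 7.02 to 8.22%. The shares add up to a fixed whole, so a lower share of Gria2 by itself leaves a higher summed share for the other Gria genes. The mean TPM of Gria1 did not rise with bicuculline, at 291 and 290 in control and 245 and 231 in knockdown cultures. That of Gria4 was 61.4 and 63.2 in control and 48.6 and 49.3 in knockdown cultures. As a share of summed CPM, which is not corrected for length, Gria2 went from 32.7% to 25.4% in control and from 37.8% to 31.7% in knockdown cultures.

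Among the TARPs, Cacng7 and Cacng8 supplied the largest shares of summed TARP TPM, 35.2 ± 0.826% and 27.4 ± 1.58% in Control-shRNA baseline. Cacng4 made up 13.6, 14.5, 13.2 and 14.2% in these libraries and 12.9, 14.6, 13.6 and 14.9% with bicuculline, so these groups overlapped. With Dnmt3a1-shRNA it made up 19.5, 20.4, 17.2 and 21.3% at baseline and 19.9, 19.7, 18.5 and 19.1% with bicuculline, above all control libraries. The share of Cacng7 was 30.3 ± 1.56% with knockdown at baseline and 32.0 ± 0.88% with knockdown and bicuculline, against 34.8 ± 1.46% in Control-shRNA bicuculline. Cacng8 went from 27.4% to 23.4 ± 1.04% with bicuculline in control and from 30.5 ± 2.23% to 25.6 ± 0.921% in knockdown cultures, and its stimulated libraries lay below the baseline libraries under both shRNAs. Cacng5 held 5.53 ± 1.04% in Control-shRNA baseline and 7.15 ± 0.586% with bicuculline, against 3.72 ± 0.981% and 4.52 ± 0.838% with knockdown. Cacng2 (8.45 to 9.46%) and Cacng3 (7.40 to 11.1%) made up small shares on average.

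**Figure D4:**
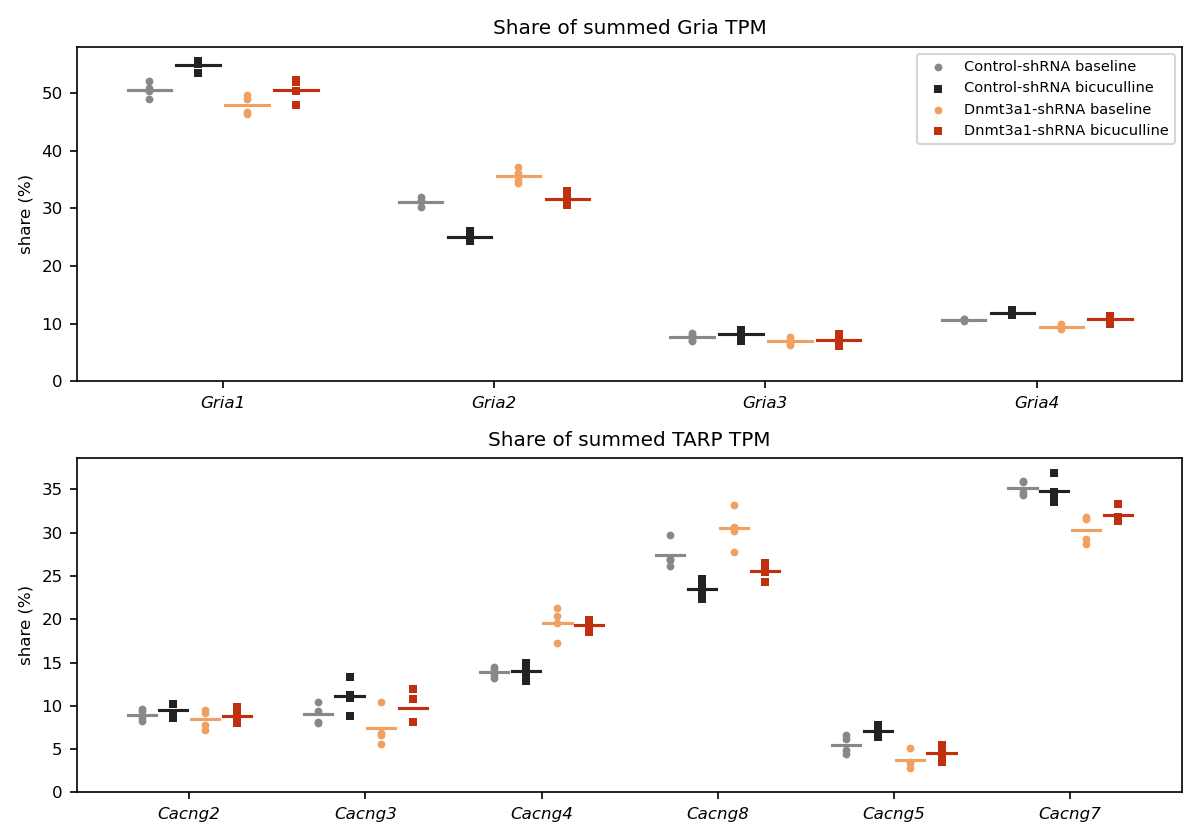
Share of each gene in the summed TPM of the 4 Gria genes (top) and of the 6 TARP genes (bottom), in percent, with 1 point per library and a bar at the mean of 4. Gria2 goes from 31.2% to 25.0% with bicuculline in Control-shRNA and from 35.6% to 31.5% in Dnmt3a1-shRNA, and Cacng4 averages 13.87% and 14.01% in control and 19.6% and 19.3% in knockdown libraries.

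Other genes of the receptor's life cycle were followed in a pair of lists. The first held 23 auxiliary and assembly proteins outside the TARPs, all tested. With bicuculline in Control-shRNA 5 passed higher and 6 lower, where 19.5% of all genes passed higher and 21.9% lower, with a list median of 0.07 against 0.01 for all genes. Both counts are close to that background. Nptx2, a secreted pentraxin that clusters AMPA receptors, stood at 31.2 ± 7.73 CPM at baseline and at 431 ± 49.7 CPM when stimulated (log2 fold change 3.79, adjusted p = 5.31e-10). Shisa8, of the Shisa family of auxiliary subunits, was called higher (0.56, adjusted p = 0.00570) from a mean of 1.42 to 2.09 CPM. Frrs1l, which assists receptor assembly in the endoplasmic reticulum, was called lower (-0.57, adjusted p = 3.84e-04), and so was Vwc2l (-0.56, adjusted p = 0.00410). In Dnmt3a1-shRNA 5 passed higher and 7 lower (20.8% and 25.2% of all genes), and the largest called changes, with the 3 largest of 4 that fell, were those of Nptx2 (4.2), Shisa8 (0.70), Vwc2l (-0.89), Frrs1l (-0.69) and Abhd6 (-0.53), a hydrolase that limits receptor delivery.

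With knockdown at baseline 7 of the 23 auxiliary and assembly genes passed higher and 1 lower, against 8.12% and 8.19% of all genes, with a list median of 0.15 against 0.01. Shisa6, an auxiliary subunit that holds receptors at the synapse, was called higher (0.51, adjusted p = 6.68e-05), from 172 ± 6.27 to 244 ± 15.3 CPM. Shisa8 was called lower (-0.85, adjusted p = 0.00153). With bicuculline 4 passed higher and 1 lower (7.69% and 9.99% of all genes), the latter again Shisa8 (-0.70, adjusted p = 0.00396), and the list median was 0.06 against -0.01.

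The second list held 22 genes of anchoring, trafficking, phosphorylation and editing. With bicuculline in Control-shRNA 8 passed higher and 2 lower, against 19.5% and 21.9% of all genes, with a list median of 0.09 against 0.01. Arc, which promotes endocytosis of AMPA receptors, went from 14.8 ± 3.67 to 740 ± 228 CPM (log2 fold change 5.64, adjusted p = 3.14e-11), and Homer1, a postsynaptic scaffold gene with an activity-induced short form, rose by 3.34 on the log2 scale (adjusted p = 1.92e-09). Dlg1, which encodes the GluA1 binding scaffold SAP97, rose by 0.97 (adjusted p = 1.59e-07). The RNA editing genes Adar and Adarb1 are added after their values were seen, outside the rule for named genes given below. They are given for only some of the comparisons. Adar was called higher (0.68, adjusted p = 1.12e-08), and Adarb1, which edits the Gria2 transcript, passed higher (0.22, adjusted p = 0.0256). Akap5, an anchor of kinases and phosphatases at the receptor, was the called gene that fell (-0.54, adjusted p = 3.85e-04). In Dnmt3a1-shRNA 8 passed higher and 3 lower, against 20.8% and 25.2% of all genes, with a list median of 0.07 against -0.01. They were led by Arc (6.09), Homer1 (3.67) and Dlg1 (1.22) among those called higher and by Akap5 (-0.73) and Dlg3 (-0.54) among those called lower. With knockdown 3 passed higher and 2 lower at baseline, against 8.12% and 8.19% of all genes, with a list median of -0.10 against 0.01. With knockdown and bicuculline 3 passed higher and 6 lower, against 7.69% and 9.99%, with a list median of -0.10 against -0.01. Dlg4, which encodes the scaffold PSD-95 to which type I TARPs bind, was called lower in both, from 671 ± 17.0 to 421 ± 17.5 CPM at baseline (-0.67, adjusted p = 2.48e-07) and by -0.76 with bicuculline (adjusted p = 5.52e-08). Adarb1 passed higher with knockdown at baseline (0.32, adjusted p = 0.00688), and Homer1 was called higher with knockdown and bicuculline (0.63, adjusted p = 0.0368). The interaction passed for no gene of either list. Of the gamma subunits outside the TARPs, Cacng6 alone was tested and was called higher with bicuculline in Dnmt3a1-shRNA (1.06, SE 0.35, adjusted p = 0.0173), at 0.398 ± 0.164 and 0.837 ± 0.300 CPM.

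Libraries of the same group also differed in these genes. The deviations of log2 CPM from the group means were correlated over the 16 libraries, which share depth and preparation, for the 45 pairs of members, with Pearson's r from -0.89 to 0.93. Gria2 with Gria4 had r = 0.93, Gria1 with Gria4 0.84 and Gria1 with Gria2 0.82. Cacng7 ran opposite to these genes, with r = -0.88 with Gria1, -0.88 with Gria2 and -0.89 with Gria4, and it ran along with Cacng4 (0.82) and Cacng3 (0.74). Cacng3 also ran along with Cacng5 (0.81). Gria3 stood apart from the other Gria genes (-0.19 to 0.17). The summed markers of neurons in general had r = 0.95 with Gria1 and -0.86 with Cacng7, and the astrocyte sum had r = 0.91 with Cacng3. The oligodendrocyte lineage sum had r = -0.89 with Gria1 and 0.88 with Cacng7. The part of cell type content in these correlations was not tested.

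**Figure D5:**
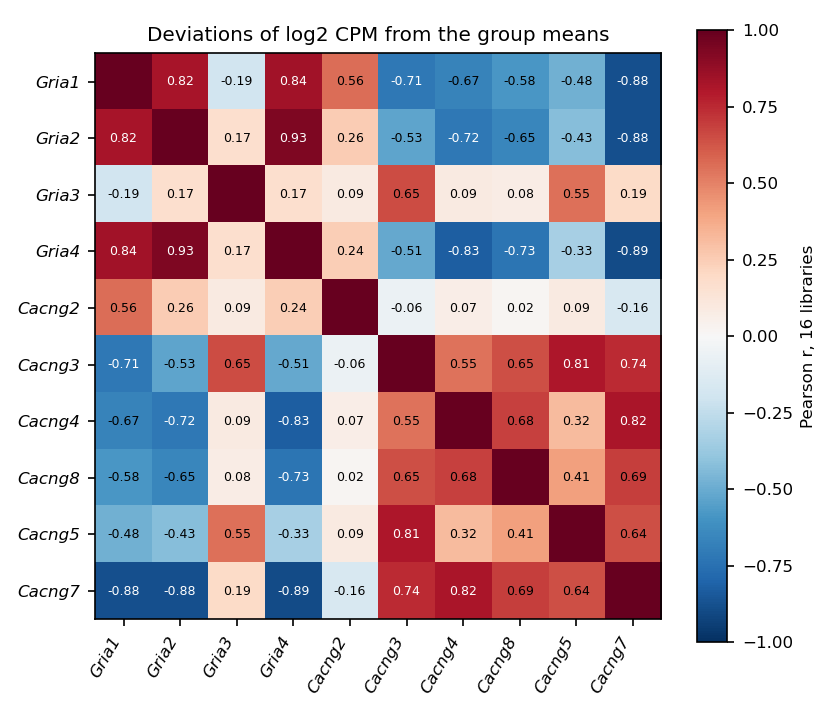
Pearson's r between members of the deviations of log2 CPM from the group means, over 16 libraries, from -1 (blue) to 1 (red). Gria1, Gria2 and Gria4 are red against each other, and Cacng7 is blue against all 3 of them (-0.88 to -0.89).

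By the same measure, the tested genes most like each member over the 16 libraries were Pkp4 (r = 0.98) and Cpsf2 (0.97) for Gria1, Pik3c2a (0.97) and Matr3 (0.96) for Gria2, Kcnt2 (0.92) and Ptprt (0.91) for Gria3, and Selenot and Armcx3 (both 0.98) for Gria4. For the TARPs they were Gm37499 and Gm5441 (both 0.88) for Cacng2, Hlf (0.97) and Rftn2 (0.96) for Cacng3, Trim62 (0.95) and Fblim1 (0.94) for Cacng4, Arl6ip1 and Cdipt (both 0.93) for Cacng8, Col6a3 and Ticam1 (both 0.91) for Cacng5, and Fndc10 (0.97) and Arhgap1 (0.95) for Cacng7. These are the highest values among 17222 genes and are given as a description.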

How the data were processed

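RNA-seq libraries (16 in all, 4 in each group) were analysed. Groups and replicate numbers were taken from the sample labels. The authors quantified trimmed paired-end reads with kallisto on the GRCm38.p6 transcripts and deposited, per library, estimated counts per gene, not scaled for depth or length, and TPM per gene, scaled for transcript length and library total. The submitters' processing notes name Trim Galore 0.6.4. Symbols of 55144 of the 55385 identifiers and gene coordinates were taken from GENCODE release M21, and promoter windows from RefSeq on GRCm38.p6. Protein sequences were not used here.

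After rounding, the estimated counts entered edgeR 4.0.16 (R 4.3.3), with TMM scaling, its filter on low counts by group and 1 quasi-likelihood fit of the 4 groups. Each of 5 contrasts was adjusted over 17222 genes. A count test of the fold change is relative to the bulk of the genes, and TPM shifts with transcripts that take up a large share of a library, so both scales were kept. Levels were compared between genes in TPM only. Alternatives were voom with limma 3.58.1, DESeq2 1.42.0, other scalings, no filter, limma on log2(TPM + 1) and log2(TPM + 0.1), no fold threshold, a block for the replicate number and each library left out. The test was checked on simulated counts. Replicates were compared for double deposits, and each pair differed by more than sampling noise (lowest ratio of chi-square to its degrees of freedom 7.64).

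The labels give all groups the same replicate numbers. Deviations from the group mean were correlated between libraries of the same number, with r of 0.142 to 0.221 over all genes for bicuculline in Control-shRNA and 0.204 to 0.355 for knockdown at baseline, so the numbers were taken to pair these libraries. In the other 2 comparisons 1 number stayed below 0.1 (0.0631 and 0.0667). The block was nevertheless 1 fit over all 16 libraries, with the same numbers in every group. Libraries of different numbers were not compared in this way.

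The members, the lists and the named genes were chosen with earlier results of these data known. Named are the 10 members, Dnmt3a, Cacng1 and Cacng6, up to 3 called genes per direction, list and comparison by size of change, and for each member the 2 genes of most similar deviations.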

Additional observations from a re-analysis of the deposited data

How the results depend on the processing

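Of 1614 recomputed values, 1479 stayed the same. For a fold change this meant the same direction and the same side of the call threshold. For a count of members called it meant an equal or similar count, and for a share a shift smaller than its SD between libraries. The count of members called with bicuculline in Control-shRNA (1) was 0 by library size alone and by limma on log2(TPM + 1) and log2(TPM + 0.1), and 3 without the fold threshold, with a range of 0 to 2 when single libraries were left out. In Dnmt3a1-shRNA it was 2 without the fold threshold and 0 to 2 without single libraries. With knockdown at baseline (1) it was 0 by library size alone and by both TPM fits, 2 with no filter and 2 with the replicate block, and 0 to 2 without single libraries. With knockdown and bicuculline (1) it was 3 without the fold threshold and 0 to 1 without single libraries. The block added passing members in the comparisons where 1 number did not pair as well, to 5 with bicuculline in Dnmt3a1-shRNA and 9 with knockdown and bicuculline, and it ended no call. With library sizes only, 69% of the genes called with bicuculline in Control-shRNA were lower, against 50.8% with TMM, and 85.8% against 69.8% with knockdown at baseline. On log2(TPM + 1) these were 71.4% and 90.9%. With knockdown at baseline 4743 genes passed with the block and 1783 on log2(TPM + 0.1), against 2809, and with knockdown and bicuculline 5158 passed with the block, against 3046. The interaction passed for 17 genes in DESeq2, for 3 with no filter and for 3 with the block, against 0.

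Changes of sign concerned members that did not pass, except Cacng2 in Dnmt3a1-shRNA. They are given as log2 fold changes by library size, then by log2(TPM + 1) and log2(TPM + 0.1). With bicuculline in Control-shRNA, Gria3 was at -0.0092, -0.0294 and -0.03, and the TPM fits gave -0.0024 and -0.0024 for Gria1, -0.0111 and -0.0115 for Cacng4 and -0.0409 and -0.0412 for Cacng7. In Dnmt3a1-shRNA, Gria1 was at -0.0458, -0.0735 and -0.0738, Gria3 at -0.0681, -0.1323 and -0.1357 and Cacng4 at -0.069, -0.1069 and -0.1082. Gria4 was at -0.0474 by library size, and the TPM fits gave -0.0254 and -0.0262 for Cacng2 and -0.0114 and -0.0115 for Cacng7. With knockdown and bicuculline, Cacng8 was at -0.0119, -0.0276 and -0.0278. The interaction of Cacng3 was 0.0015 by voom with limma and 0.0556 and 0.0602 on TPM. Without single libraries it ranged from -0.2439 to 0.1931, that of Cacng5 from -0.365 to 0.0444, that of Cacng7 from -0.047 to 0.0807 and that of Gria2 from -0.0502 to 0.0837. Cacng8 with bicuculline in Control-shRNA ranged from -0.1266 to 0.0088. The cause of these changes was not tested beyond the scaling itself. TPM and library size move the median of all genes by up to -0.19.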
